A study of Mus musculus with 4 samples.

Results

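The Scn7a and Boc cortical excitatory neurons were 940 of the 52132 nuclei kept from 4 single-nucleus RNA libraries of mouse brain, and 940 of the 19491 excitatory nuclei among them. Each nucleus was chosen by its own counts of unique molecular identifiers (UMIs, one per captured RNA molecule). It had to hold at least 1 UMI of *Slc17a7*, none of *Gad1* or *Gad2*, none of *Syt6* or *Rspo1* and at most 1 of *Tcf7l2*. It also had to hold at least 3 UMIs from at least 2 of the marker genes *Scn7a*, *Boc*, *Hgf* and *Tnnc1*, and at least as many UMIs of those 4 as of the upper layer genes *Ccbe1*, *Stard8* and *Tmc1*. These 13 genes chose the nuclei, so their levels are given as a description and none of them was tested.

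The libraries came from whole brains of 2-month-old female C57/BL6 mice, 2 wild-type (WT) and 2 heterozygous for a null allele of *Csf1r* (Csf1r+/-, HET). *Csf1r* encodes the receptor for colony stimulating factor 1, and the study asked how carrying 1 working copy alters gene expression in brain cells before symptoms. The allele is present in every cell of the animal from conception, and no animal received a treatment. Each library held the nuclei of 1 mouse, and other libraries of the study were not analysed here. All mice were perfused, nuclei were isolated without detergent, and myelin debris was removed with magnetic beads.

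Excitatory cortical neurons release glutamate, which the transporter encoded by *Slc17a7* loads into synaptic vesicles, and they are arranged in layers that differ in their targets. *Scn7a* encodes Nax, an atypical member of the sodium channel family that senses extracellular sodium. *Boc* encodes a cell-surface co-receptor for hedgehog proteins, *Hgf* encodes hepatocyte growth factor, the ligand of the receptor tyrosine kinase MET, and *Tnnc1* encodes the troponin C of slow skeletal and cardiac muscle.

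By library, WT replicate 1 gave 233 of these neurons, WT replicate 2 gave 220, HET replicate 1 gave 281 and HET replicate 2 gave 206. Their summed depth was 3292387, 2384601, 4792501 and 2843935 UMIs in the same order. The median nucleus held 12153 UMIs, against 7811 in the other 18551 excitatory nuclei, and a rule that asks for UMIs favours deep nuclei. WT replicate 2 stood apart before any comparison was made. Its mitochondrial share was the highest of the 4, with a median of 0.343% of UMIs in these neurons against 0.0801% in WT replicate 1, 0.135% in HET replicate 1 and 0.0900% in HET replicate 2, and the ribosomal protein and metallothionein values that rest on it are given without it below. High doublet scores by Scrublet fell on 97 of the 940 nuclei, or 10.3%, beside 10.9% among all excitatory nuclei. The cut marked 0.8% of a library for each 1000 of its nuclei, so the marked share rises with library size by design. Of all kept nuclei it was 12.7%, 12.1%, 7.60% and 8.95% in the 4 libraries. Removing the marked nuclei thus took a larger share of kept nuclei from both WT libraries. In these neurons the share was 15.9% in WT replicate 1, 9.09% in WT replicate 2, 7.12% in HET replicate 1 and 9.71% in HET replicate 2. Of the 940 barcodes, 13 also occurred in another library and 1 was carried by these neurons in both of 2 libraries.

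The targeted gene was checked in the nuclei that express it. Among nuclei with at least 6 UMIs from at least 3 microglial genes and no UMI of *Slc17a7*, *Gad1* or *Gad2*, *Csf1r* stood at 616 counts per 1000000 UMIs (CPM) in WT replicate 1, 447 in WT replicate 2, 409 in HET replicate 1 and 414 in HET replicate 2. Both HET libraries were below both WT libraries, over 142, 149, 165 and 118 such nuclei. With nuclei holding neuronal UMIs included, *Csf1r* stood at 297, 220, 157 and 220 CPM, and the second WT and HET libraries could not be separated. Over all kept nuclei, where the number of microglia also enters, *Csf1r* stood at 3.04, 6.53, 6.68 and 6.36 CPM. The sources used here do not say which part of the gene the allele lacks, so this check is partial, and WT and HET below mean libraries so labelled.

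The name of the population rests on *Boc* and *Hgf* more than on *Scn7a*. A *Boc* UMI was found in 89.4% of the 940 nuclei, a *Hgf* UMI in 80.9%, a *Scn7a* UMI in 39.4% and a *Tnnc1* UMI in 21.0%. The largest group, 459 nuclei or 48.8%, held *Boc* and *Hgf* alone, and 38 nuclei held all 4 markers. Conversely, 768 excitatory nuclei held a *Scn7a* UMI and 370 of these met the rule. A total of 292 nuclei were just inside the rule with 3 marker UMIs, and 315 nuclei met every other condition with 2 marker UMIs from 2 genes and stayed outside.

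*Scn7a* stood at 63.8 CPM in WT replicate 1, 62.1 in WT replicate 2, 46.5 in HET replicate 1 and 60.8 in HET replicate 2. Pooled over libraries it was at 56.6 CPM here, 3.03 CPM in the other excitatory nuclei, 5.63 CPM in inhibitory nuclei and 3.51 CPM in oligodendrocyte nuclei. Oligodendrocyte nuclei, which should hold little neuronal RNA, carried a *Scn7a* UMI in 0.787% at a median depth of 1970 UMIs, and the other excitatory nuclei in 2.15% at 7811 UMIs, so the low shares cannot be told apart from free RNA. *Boc* stood at 147, 159, 125 and 161 CPM and *Hgf* at 145, 181, 148 and 127 CPM across the 4 libraries. *Tnnc1* was the scarcest and the most uneven, at 11.8, 33.1, 20.03 and 19.0 CPM.

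Beside 2 like types, the order of the levels differed by gene. The upper layer type was chosen by a mirror image of the rule, with more UMIs of its genes than of the 4 markers. The layer 4 type needed at least 2 UMIs of *Rspo1*, none of *Syt6* and at most 1 of *Tcf7l2*. It had no condition on the 4 markers, so the 2 types were not chosen alike. In 795 upper layer type nuclei, chosen for *Ccbe1*, *Stard8* and *Tmc1*, *Scn7a* stood at 0.670 CPM, *Boc* at 22.8 CPM and *Hgf* at 4.11 CPM. In 258 layer 4 type nuclei, chosen for *Rspo1*, a secreted activator of Wnt signalling, they stood at 6.02, 77.6 and 50.8 CPM. All 3 genes thus had their second highest pooled levels in the *Rspo1* nuclei, but *Scn7a* there rested on 20 UMIs, at 1.62, 11.3, 3.38 and 11.5 CPM in the 4 libraries, which spans its 4.24 to 6.40 CPM in inhibitory nuclei. Counts within a type came from the same 4 mice, and no order of these levels was tested. The rules hold the levels up in the chosen neurons and down in the upper layer type nuclei, but not in the layer 4 type nuclei.

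**Figure D1:**
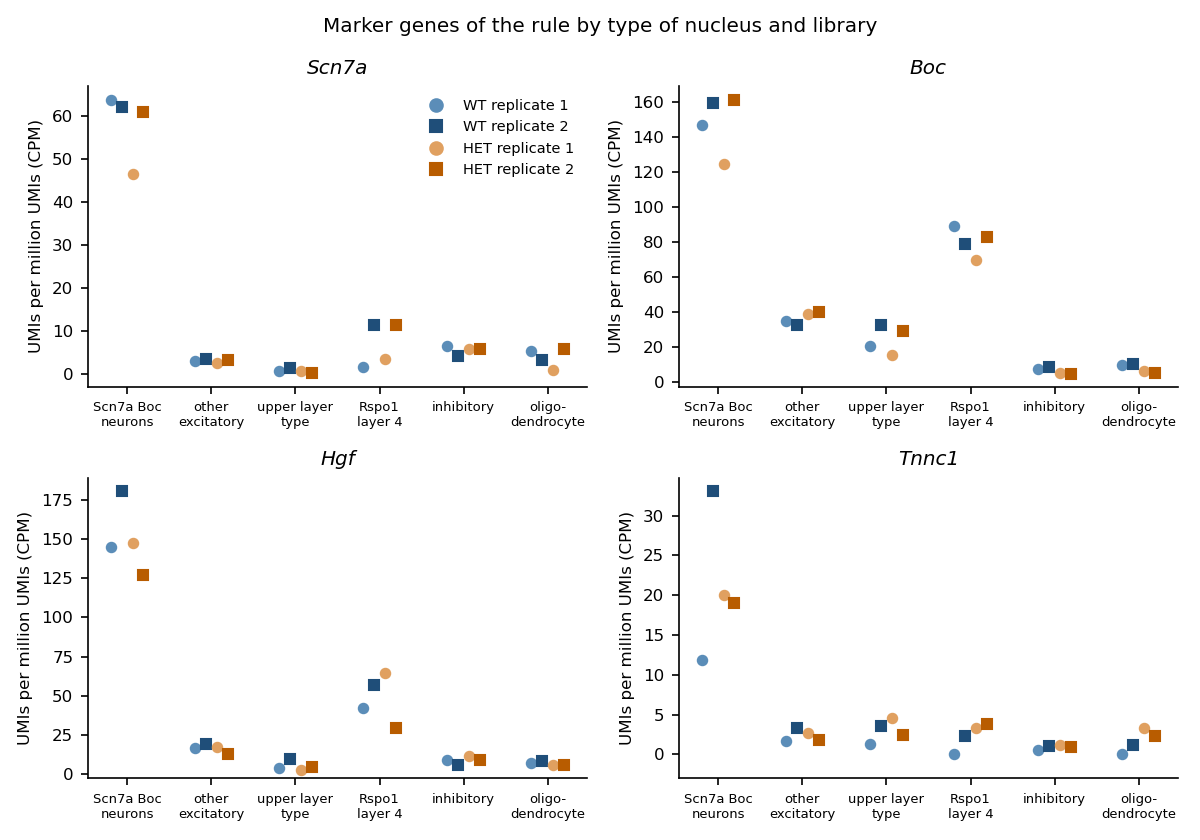
Levels of the 4 marker genes (y axis, CPM) in the Scn7a and Boc neurons and 5 other sets of nuclei (x axis), 1 point per library, WT in blue and HET in orange. The marker genes chose the first set; *Boc* and *Hgf* have their next highest levels in the *Rspo1* layer 4 nuclei, where *Boc* stands at 77.6 CPM over all libraries.

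To describe what these neurons share beyond the rule, their summed counts were compared with those of the other excitatory nuclei of the same library. Of 8721 genes tested, 83 (0.952%) were higher and 84 (0.963%) lower by at least 2-fold at an adjusted p under 0.05 by edgeR's quasi-likelihood test with Benjamini-Hochberg adjustment. Scaled to library totals alone, the split was 63 higher and 106 lower, and the median of all tested genes moved from -0.02 to -0.11 on the log2 scale. Genes that vary with the 13 rule genes from nucleus to nucleus differ in part through the choice of nuclei, so these counts describe the chosen nuclei and not a type defined in another way. A gene also had to be detected in 10% of nuclei of only 1 of the 2 sets to be tested, and 46 of the 83 higher and 34 of the 84 lower genes were under 10% in the set where they were lower. Such genes could be tested only through the set where they are high, so their presence among the called genes carries no weight. The deeper nuclei of the chosen set are a further difference whose part was not tested.

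*Rorb*, a nuclear receptor typical of layer 4 and of some layer 5 neurons, stood at 949, 721, 595 and 732 CPM in the 4 libraries, against 384, 283, 281 and 330 CPM in the other excitatory nuclei. The sets did not overlap, and the log2 difference was 1.31 (SE 0.05, adjusted p = 3.76e-12, edgeR). *Thsd7a*, a thrombospondin-domain membrane protein, stood at 450, 428, 471 and 421 CPM against 150, 152, 166 and 111 CPM (log2 difference 1.71, SE 0.06). *Htr2a*, the serotonin 2A receptor, stood at 135, 111, 104 and 120 CPM against 50.8, 48.3, 40.9 and 45.4 CPM (log2 difference 1.44, SE 0.05). In each of these genes every library showed the difference.

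The highest-ranked gene by p was *Ankfn1*, at 124 ± 22.7 CPM here and 32.4 ± 5.25 CPM in the other excitatory nuclei (mean ± SD, n = 4 libraries, log2 difference 2.03). The noncoding transcript *4930467D21Rik* stood at 80.3 ± 21.7 against 14.6 ± 2.32 CPM (log2 difference 2.53), and it was the 1 named higher gene that was testable only through these neurons. The other higher genes named by rank were the glycosyltransferase *Galntl6* (log2 difference 1.15), the copine *Cpne4* (1.25), the adhesion molecule *Cntn5* (1.21), the collagen *Col26a1* (1.62), the sarcoglycan *Sgcd* (1.03), the sodium, potassium and calcium exchanger *Slc24a3* (1.09), *Nxpe4* (1.01), *Lcorl* (1.18) and the transcripts *Gm20752* (1.73) and *A830036E02Rik* (1.28). *Gm20752* varied most, at 179, 53.3, 186 and 122 CPM, with WT replicate 2 low in both sets of nuclei.

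Among the 10 lower genes named by rank, *Foxp2* and *Tle4*, transcriptional regulators of layer 6 corticothalamic neurons, had log2 differences of -2.85 (SE 0.13) and -1.63 (SE 0.07). *Bcl11b*, which specifies layer 5 neurons projecting to the brainstem and spinal cord, stood at 23.7, 30.6, 19.6 and 17.9 CPM against 69.1, 110, 78.0 and 71.3 CPM (log2 difference -1.75, SE 0.08). The other named lower genes were the transcriptional cofactor *Zfpm2* (-1.52), *Thsd7b* (-2.04), the kainate receptor subunit *Grik3* (-1.72), the channel-family protein *Ano4* (-1.25), the semaphorin *Sema5a* (-2.68), the sulfatase *Sulf1* (-2.85) and the transcription factor *Nfia* (-1.86). *Sema5a* and *Sulf1* were testable only through the other excitatory nuclei. *Syt6*, itself a corticothalamic gene, had to be absent by the rule, so low corticothalamic genes go with the choice of nuclei.

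**Figure D2:**
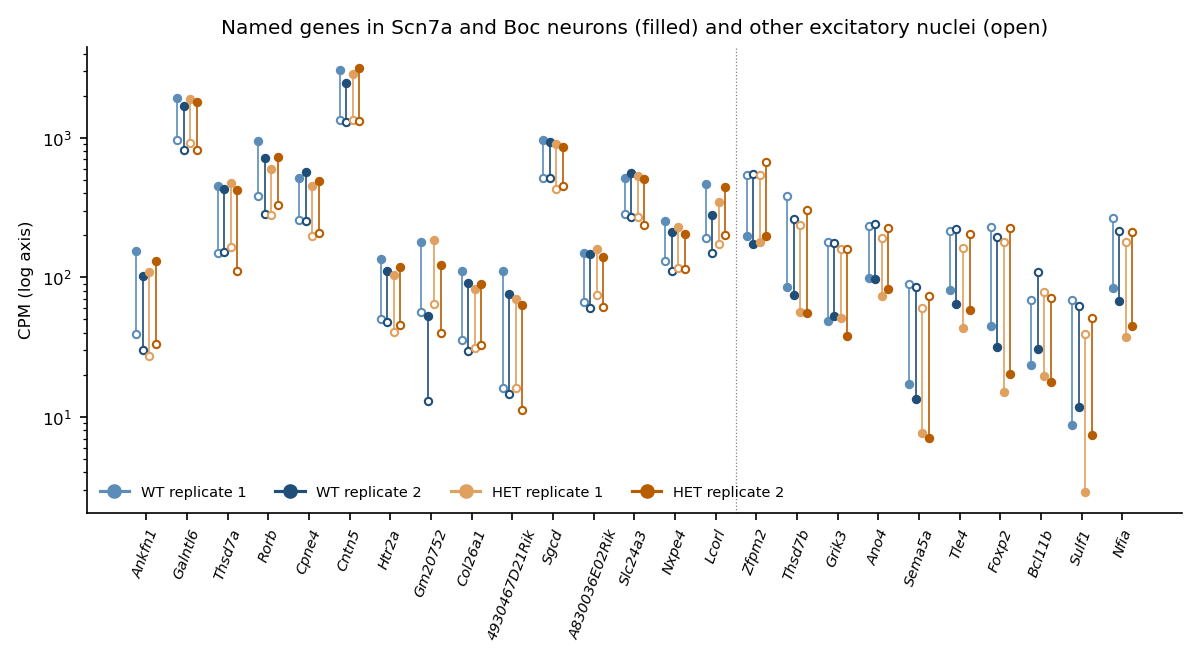
Levels (y axis, CPM on a log axis) of the 15 higher and 10 lower named genes (x axis) in the Scn7a and Boc neurons (filled) and in the other excitatory nuclei (open), joined within each library. The direction is shared by all 4 libraries for each gene; *Rorb* ran from 595 to 949 CPM against 281 to 384 CPM.

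The layer marker lists differed in direction. Against all other excitatory nuclei, 27.5% of tested genes passed an adjusted p under 0.05 in either direction. Of the 4 layer 4 genes tested, 3 were higher and all 3 by at least 2-fold: *Rorb*, *Kcnh5* (log2 difference 1.07) and *Whrn* (1.23), while *Cux2* did not pass (0.13). Intratelencephalic neurons project within the forebrain, and of 5 layer 5 intratelencephalic genes tested, *Rorb* and *Il1rapl2* (0.58) were higher and *Parm1* (-0.88) was lower. All 4 layer 6 corticothalamic genes tested were lower, and 3 of the 4 layer 5 extratelencephalic genes were lower. Of the corticothalamic genes, *Sulf1* was testable only through the other excitatory nuclei and carries no weight. Of the extratelencephalic list, 3 genes were in enough of these neurons to be tested between genotypes. Not all 4 counted here were therefore testable through these neurons, and any that were not carry no weight. *Batf3*, *Osr1* and *Car3*, markers of some layer 5, layer 6 and claustral neurons, had 0 UMIs in all 940 nuclei.

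The growth factor and hedgehog pathways of the rule genes were then read through their other members. *Met*, the receptor for hepatocyte growth factor, stood at 16.4, 11.7, 9.18 and 20.4 CPM in these neurons and at 7.11, 4.99, 5.29 and 6.01 CPM in the other excitatory nuclei, with no overlap. The log2 difference was 1.35, from 184 *Met* UMIs in these neurons. *Met* could be tested only through these neurons, so it is given as a level with no test. A *Met* UMI was present in 11.8% of nuclei, against 4.06% of other excitatory nuclei, 3.65% of inhibitory nuclei at a median depth of 6467 UMIs and 0.290% of oligodendrocyte nuclei. It occurred at 11.2% in nuclei with a *Hgf* UMI and at 14.4% in those without.

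Among the 10 tested members of the HGF and MET list, 2 were higher and 1 lower than in the other excitatory nuclei, beside the 27.5% of all tested genes that passed, with *Met* counted among the higher ones although it could be tested only through these neurons. The second higher gene was *Pik3r1*, a regulatory subunit of phosphoinositide 3-kinase (log2 difference 0.32). Of the 6 tested genes of hedgehog reception, 1 was higher and 2 lower, beside the same 27.5%. *Scube1*, of a family that helps release hedgehog ligands, stood at 124, 168, 158 and 134 CPM against 78.6, 90.1, 91.4 and 76.1 CPM (log2 difference 0.88, adjusted p = 6.98e-10, edgeR). *Ptch1*, the hedgehog receptor and a target of its signalling, and *Cdon*, a co-receptor related to *Boc*, were lower, with log2 differences of -0.56 and -0.43.

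Of the 9 other sodium channel genes tested, 1 was higher and 1 lower than in the other excitatory nuclei, beside 27.5% of all tested genes. The higher one was *Scn9a*, a peripheral-type channel gene, with a log2 difference of 0.25. *Scn2a*, the most abundant, did not pass (0.09). Of the troponins and tropomyosins, only *Tpm1* and *Tpm3* were high enough to test, *Tpm3* was higher (0.17) and *Tpm1* did not pass (-0.09). No troponin was tested, since *Tnnc1* is a rule gene and the others were too low, and *Tnni2*, *Tnnt1* and *Tnnt3* had 0 UMIs.

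Against the upper layer type nuclei, 236 of 9096 tested genes (2.59%) were at least 2-fold higher and 182 (2%) at least 2-fold lower at an adjusted p under 0.05 (edgeR), of which 98 and 79 were testable only through the set where they are high. *Htr1f*, the serotonin 1F receptor, stood at 334, 300, 304 and 308 CPM against 52.1, 43.3, 31.8 and 29.7 CPM (log2 difference 3.05, SE 0.10). *Ptprm*, a receptor tyrosine phosphatase, stood at 193, 211, 212 and 194 CPM against 26.4, 31.2, 19.8 and 27.5 CPM (log2 difference 3.0, SE 0.10). Both genes were far outside the spread of either set. *Galntl6* (3.38), *Slc24a3* (2.50), *Rorb* (2.53), *Cntn5* (1.83), *Tenm1* (2.06) and *Zfp804b* (1.62) made up the other named higher genes.

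Of the genes lower than in upper layer type nuclei, 8 are named by rank. *Chrm3*, the muscarinic M3 receptor, stood at 556 ± 102 CPM here and 1785 ± 214 CPM there (mean ± SD, n = 4 libraries, log2 difference -1.68). *Gsg1l*, an auxiliary subunit of AMPA receptors, had a log2 difference of -2.04, *Dgkb* of -1.41, *Rgs6* of -1.45, the AMPA receptor subunit *Gria3* of -1.21, the neurotrophin receptor *Ntrk3* of -1.23, *Alcam* of -1.36 and *Kctd1* of -1.41. All 5 layer 5 intratelencephalic genes tested were higher, among them *Deptor* (2.09), *Etv1* (1.48) and *Il1rapl2* (3.41), and all 5 upper layer genes tested were lower, among them *Cux2* (-1.06), *Calb1* (-1.51) and *Lamp5* (-0.85), beside 23.6% of genes that passed in either direction. Of the 5 higher genes, *Deptor* and *Parm1* were testable only through these neurons. Of the upper layer list, 4 genes were in enough of these neurons to be tested between genotypes. Not all 5 lower genes were therefore testable through these neurons, and any testable only through the upper layer type nuclei carry no weight. *Scube1* (1.12) and *Scn9a* (1.29) were higher here too, and *Met*, testable only through these neurons, was under 10% of the upper layer type nuclei.

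Against the *Rspo1* layer 4 type nuclei, 136 of 8889 tested genes (1.53%) were at least 2-fold higher and 54 (0.607%) at least 2-fold lower at an adjusted p under 0.05 (edgeR), of which 65 and 31 were testable only through the set where they are high. *Il1rapl2*, an adhesion protein of the interleukin 1 receptor family, stood at 585, 456, 871 and 691 CPM against 165, 224, 178 and 107 CPM (log2 difference 2.03, SE 0.14). *Tenm1*, a teneurin adhesion protein, stood at 758, 713, 675 and 698 CPM against 211, 323, 226 and 165 CPM (log2 difference 1.66, SE 0.10). *Dpyd* (2.01), *Sgcd* (1.39), *Htr1f* (1.23), *Cntn5* (1.23), the noncoding RNA *Rmst* (1.21) and *Galntl6* (1.17) were also named as higher. Beside 9.31% of genes that passed an adjusted p under 0.05 in either direction, 3 of 5 layer 5 intratelencephalic genes were higher (*Il1rapl2*, *Deptor* with 1.04 and *Etv1* with 0.89), and 3 of 4 upper layer genes and 3 of 4 layer 4 genes were lower.

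Lower than in the layer 4 type nuclei were *Cux1*, a homeodomain factor of upper layers, at 282, 178, 183 and 251 CPM against 565, 377, 398 and 495 CPM (log2 difference -1.04, SE 0.07), and *Chrm2*, the muscarinic M2 receptor (-1.29). *Tshz2* (-1.81), the kainate receptor subunit *Grik1* (-1.26), *Cadps2* (-1.09), *Fmn1* (-1.08), *Gm16599* (-1.04) and *Plcb4* (-1.02) completed the named lower genes. *Rorb* was lower as well, by 0.28 on the log2 scale, so its level was below that of the layer 4 type nuclei and above that of the other excitatory nuclei. *Met* had 6 UMIs in all the layer 4 type nuclei, none of them in WT replicate 1 or HET replicate 2, and is given no fold. The 3 references share the neurons they are compared with, and the smaller sets are part of the other excitatory nuclei, so a gene that recurs is not separate evidence.

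The 940 nuclei were not uniform. Clustering without the rule genes gave 9 subclusters of 219, 160, 156, 94, 83, 82, 76, 57 and 13 nuclei. The genes that lead a subcluster defined it and are given as a description. None of the 9 held 3 or more markers of a neuronal class among its leading 10 genes, so they are called by number.

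*Scn7a* was concentrated in subclusters 1 and 2. Subcluster 2, led by *Hsd11b1*, *Thsd7a* and *Spock3*, had a *Scn7a* UMI in 80.0% of nuclei (124 CPM) and the highest *Met* share, 23.1%. Subcluster 1, led by *Zfp804b*, the cannabinoid receptor gene *Cnr1* and *Grk5*, had *Scn7a* in 62.6% and the highest *Tnnc1* share, 39.7%. *Hsd11b1* encodes the enzyme that regenerates active glucocorticoid and was at 26.4 CPM in subcluster 2 and 3.34 CPM in the others.

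Subcluster 3 met the rule almost without *Scn7a*. Its 156 nuclei had *Scn7a* in 0.641%, *Boc* in 98.7% and *Hgf* in 98.1%, and it was led by *Grik1*, *Chrm2* and *Pld5*, with *Cux1* at 575 CPM against 173 CPM in the other subclusters. *Rorb* stood at 1730, 1645, 1317 and 1761 CPM there, above the 1176, 885, 722 and 872 CPM of the *Rspo1* layer 4 type nuclei. *Met* was found in 1.28% of its nuclei. Of the genes the population is named for, subcluster 3 thus carried *Boc*, at 212 CPM the highest of the 9, and almost no *Scn7a*.

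The remaining subclusters were smaller. Subcluster 5 was led by *4930467D21Rik*, *Ankfn1* and the integrin *Itga4*, subcluster 7 by *Kctd8*, *Otof* and *Glis3*, and subcluster 8 by *2700069I18Rik*, *Col25a1* and *Macc1*. Subcluster 4 was led by *Arhgap25*, *Thsd7b* and *Sdk2* at a median of 17741.5 UMIs, with high doublet scores in 27.7%, and subcluster 6 was led by *Ndst4*, *Cdh9* and *Cntnap5c*, with high doublet scores in 39.0%. Subcluster 9 was 13 nuclei with oligodendrocyte transcripts (*St18* at 661 CPM, against 3.45 CPM in the others), and 12 of the 13 had high doublet scores.

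The nuclei with and without a *Scn7a* UMI differed along the same genes, as a description. With *Scn7a*, *Thsd7a* stood at 660, 640, 701 and 613 CPM and *Zfp804b* at 1377, 665, 1189 and 1576 CPM. Without it, *Thsd7a* stood at 290, 297, 296 and 259 CPM and *Zfp804b* at 519, 316, 492 and 528 CPM. *Cux1* and *Grik1* went the other way, at 81.3 to 128 and 45.7 to 86.9 CPM with *Scn7a* and 230 to 400 and 148 to 179 CPM without it.

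**Figure D3:**
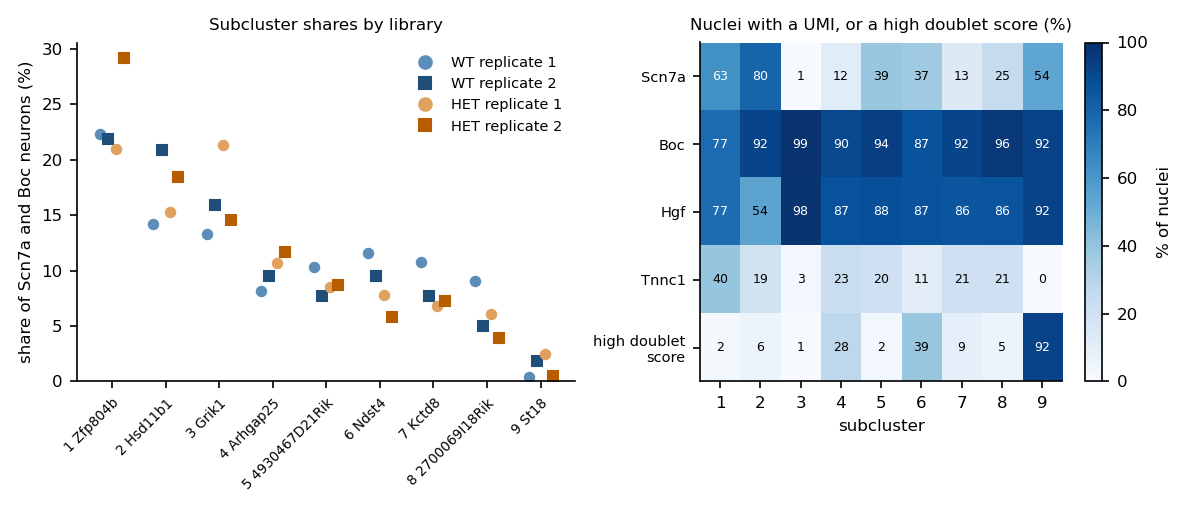
Left, share of the Scn7a and Boc neurons in each of 9 subclusters (x axis, number and leading gene) in each library (y axis, percent). Right, percent of nuclei of each subcluster with a UMI of each marker gene or a high doublet score; *Scn7a* runs from 0.641% in subcluster 3 to 80.0% in subcluster 2.

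The first question on genotype was whether the population differed in size. Of all kept nuclei it made up 1.45% in WT replicate 1, 1.44% in WT replicate 2, 2.93% in HET replicate 1 and 1.84% in HET replicate 2. Both HET libraries were above both WT libraries, and HET replicate 1 was the far one. The means were 1.44% ± 0.00215 in WT and 2.39% ± 0.769 in HET (SD, n = 2 each), a difference of 0.942 points with an exact two-sided permutation p of 0.33, the smallest p that 2 against 2 libraries allow. The difference was 0.398 points without HET replicate 1, 1.49 points without HET replicate 2 and 0.0307 points with each nucleus thinned to 3000 UMIs. The nearly equal WT values are 233 of 16114 and 220 of 15247 nuclei.

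Of the excitatory nuclei alone, the shares were 4.41%, 4.37%, 6.75% and 4.11%, and the groups overlapped (difference 1.04 points, exact two-sided permutation p = 1). Without HET replicate 1 that difference was -0.277 points. Depth differed between libraries, and the median of these neurons was 12101, 9494.5, 14565 and 12905.5 UMIs in the 4 libraries. With each nucleus thinned to 3000 UMIs, 82 nuclei met the rule (15, 28, 17 and 22), and their shares of excitatory nuclei were 0.565%, 0.916%, 0.757% and 0.796%, a difference of 0.0362 points (exact two-sided permutation p = 1). Thinning left out 384, 506, 130 and 175 excitatory nuclei that were shallower, 1 of them a chosen neuron. No difference in share was detectable with these 4 libraries.

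**Figure D4:**
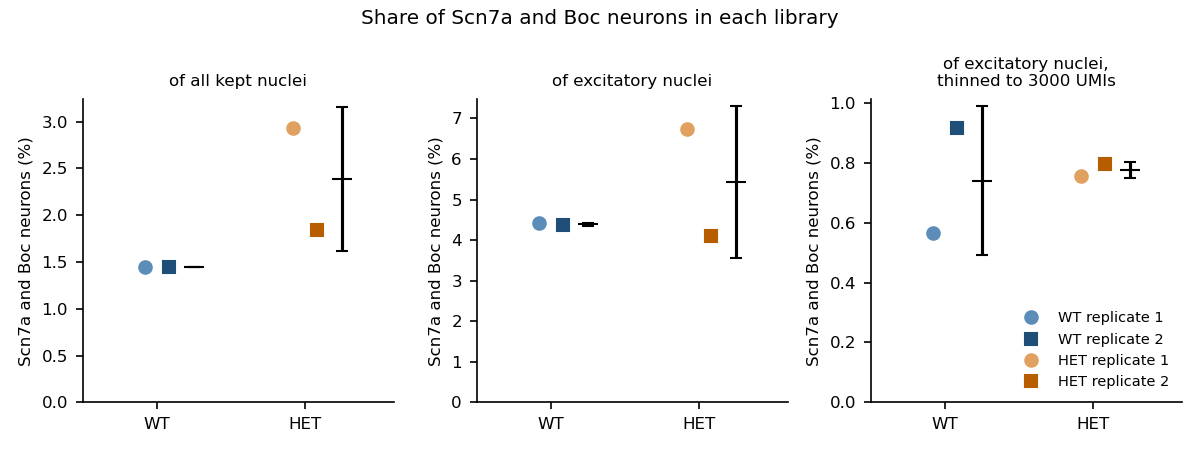
Share of the Scn7a and Boc neurons (y axis, percent) among all kept nuclei, among excitatory nuclei, and among excitatory nuclei thinned to 3000 UMIs, 1 point per library, with the mean and SD of each group in black (n = 2). HET replicate 1 stands apart at 2.93% and 6.75%, and after thinning WT replicate 2 is the highest at 0.916%.

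Within the population, the largest difference between genotypes was in subcluster 6, at 11.6% and 9.55% of the neurons in WT and 7.83% and 5.83% in HET. The means were 10.6% ± 1.44 and 6.83% ± 1.42 (SD, n = 2 each), a difference of -3.74 points with an exact two-sided permutation p of 0.33. The largest differences at other resolutions or without centring were in clusters drawn differently and are given with the settings.

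The expression comparison asked which genes differ between HET and WT within these neurons. By edgeR's quasi-likelihood test, 0 of 9021 tested genes (0%) passed an adjusted p under 0.05, DESeq2 gave 1 and edgeR's likelihood-ratio test gave 2. At an unadjusted p under 0.05 there were 185 genes (2.05%). At the unadjusted p under 0.01 that the study used, 1 gene was higher (0.0111%) and 29 were lower (0.321%). In 848 genes (9.4%) both HET libraries were above both WT libraries, and in 1457 (16.2%) both were below. The genes named next therefore did not pass the adjusted threshold, and their values are given for that reason only. Of the 10 named in each direction, 4 higher and 4 lower ones were under 10% of nuclei in the genotype where they were lower, and so could be tested only through the other one.

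*Ndst4*, an enzyme of heparan sulfate synthesis, stood at 49.5 and 41.5 CPM in the WT libraries, and at 13.1 and 8.79 CPM in the HET ones (log2 fold change -2.00, SE 0.26). It was carried by few nuclei, since 11.5% of WT and 5.95% of HET nuclei held a UMI, so it could be tested only through the WT nuclei and its p-values carry no weight. Its adjusted p was 0.299 (edgeR). Oligodendrocyte nuclei held a *Ndst4* UMI in 8.20% at a median depth of 1970 UMIs, and its levels there were 56.9 and 53.6 CPM in the WT libraries against 36.7 and 40.5 CPM in the HET ones, so outside subclusters 6 and 9 the level here cannot be told apart from free RNA. Of its 350 UMIs, 250 were in subcluster 6 and 52 in subcluster 9, all of the latter in WT replicate 2, where 4 nuclei of that subcluster were found. Without subcluster 9 the log2 fold change was -1.64 (adjusted p = 0.9997, edgeR). Without subcluster 6, or without nuclei of high doublet score, too few nuclei held a UMI for *Ndst4* to be tested. It passed by DESeq2 (adjusted p = 0.000733) and by edgeR's likelihood-ratio test (adjusted p = 1.27e-07), and without HET replicate 2 (adjusted p = 0.01, edgeR).

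*Glis3*, a Krüppel-like zinc finger factor, stood at 30.1 and 44.5 CPM in the WT libraries, and at 12.9 and 11.3 CPM in the HET ones (log2 fold change -1.57, SE 0.26, adjusted p = 0.778, edgeR). A UMI was present in 12.6% of WT and 6.16% of HET nuclei, so *Glis3* too was testable only through the WT nuclei. It is a leading gene of subclusters 5 and 7, which made up 10.3% and 10.7% of WT replicate 1, 7.73% of WT replicate 2 each, and 8.54% and 6.76% of HET replicate 1 and 8.74% and 7.28% of HET replicate 2. In subcluster 7 it stood at 124 and 181 CPM in the WT libraries, and at 69.0 and 25.6 CPM in the HET ones. In subcluster 5 it stood at 75.1 and 98.2 CPM in the WT libraries, and at 73.3 and 57.8 CPM in the HET ones. Of its 299 UMIs, 60 were in subcluster 6, where it stood at 53.5 and 90.5 CPM in the WT libraries against 2.26 and 48.9 CPM in the HET ones, and 22 were in subcluster 9, all in WT replicate 2. High doublet scores were frequent in both of these subclusters.

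The other 8 genes lower in HET by the smallest p follow. The transcription factor *Npas3* stood at 137 and 152 CPM in the WT libraries, and at 87.0 and 83.3 CPM in the HET ones (log2 fold change -0.73). *Nfia* stood at 83.5 and 67.5 against 37.4 and 44.7 CPM (-0.88) and *Foxp2* at 44.95 and 31.9 against 15.02 and 20.4 CPM (-1.13). *Cdh13*, a cadherin without a cytoplasmic domain, stood at 193 and 193 against 87.2 and 128 CPM (-0.83), and the AMPA receptor auxiliary subunit *Gsg1l* at 63.2 and 65.0 against 37.6 and 39.0 CPM (-0.72). *Cdh13* stood at 421 CPM in subcluster 6 against 109 CPM in the others, and *Gsg1l* at 165 CPM in subcluster 7 against 37.5 CPM, and both subclusters were a smaller share in both HET libraries. The value for *Cdh13* was -0.86 without subcluster 6, -0.63 without nuclei of high doublet score and -0.66 among nuclei with a *Scn7a* UMI. Under the stricter marker rule it was -0.50. Leaving out HET replicate 2 gave -1.12, and leaving out HET replicate 1 gave -0.57. For *Gsg1l* the value was -0.13 under the stricter marker rule and -0.24 among nuclei with a *Scn7a* UMI. *Rnf152*, *Nhs* and the transcript *6530403H02Rik*, a leading gene of subcluster 6, had log2 fold changes of -1.62, -1.05 and -1.07. For *6530403H02Rik* the value was -2.46 without subcluster 6 (adjusted p = 0.0818, edgeR) and -0.90 without nuclei of high doublet score. Leaving out HET replicate 2 gave -1.52 for this transcript, and leaving out HET replicate 1 gave -0.69. It was in 20.5% of WT and 9.03% of HET nuclei, and *Rnf152* in 10.4% and 4.52%, so both could be tested only through the WT nuclei and their p-values carry no weight.

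Among genes higher in HET, *Hlf*, a clock-controlled transcription factor, had the smallest p and stood at 37.7 and 32.3 CPM in the WT libraries, and at 53.6 and 53.1 CPM in the HET ones (log2 fold change 0.62, unadjusted p = 0.00852, adjusted p = 0.9999, edgeR). *Il1rapl2* stood at 585 and 456 CPM in the WT libraries, and at 871 and 691 CPM in the HET ones (0.60). *Gpd1*, which makes glycerol phosphate, stood at 3.34 and 3.77 against 7.93 and 7.03 CPM (1.11), and was in 4.19% of WT and 10.5% of HET nuclei. The others were *Podxl2* (0.67), *1500015A07Rik* (0.94), *Rasal1* (0.85), *Gm1992* (0.47), *Adgrd1* (1.14), *Rnf39* (1.26) and *Pcsk2os2* (1.0), the last with HET replicate 2 at 71.7 CPM and the others at 25.2 to 31.5 CPM. *Gpd1*, *1500015A07Rik*, *Adgrd1* and *Rnf39* were under 10% of WT nuclei. They could be tested only through the HET nuclei, so their p-values carry no weight.

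**Figure D5:**
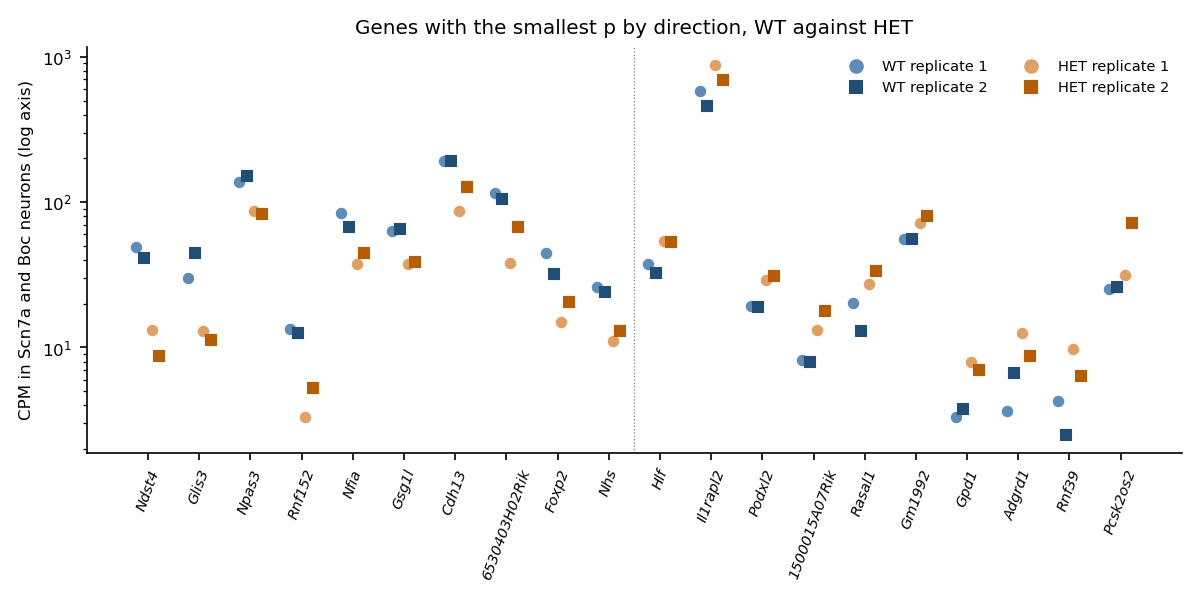
Levels in the Scn7a and Boc neurons (y axis, CPM on a log axis) of the 10 genes lower and 10 genes higher in HET with the smallest p (x axis), 1 point per library. The groups do not overlap by the rule that named the genes, and none passed an adjusted p under 0.05; *Ndst4* stands at 41.5 to 49.5 CPM in WT and 8.79 to 13.1 CPM in HET.

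Gene lists that bear on the study's questions gave no member past the adjusted threshold, beside a median of 0.00 over all tested genes. Of 67 ribosomal protein genes, 64 were below 0, as were 50.6% of all tested genes, with a median log2 fold change of -0.62, 14 at an unadjusted p under 0.05, beside 2.05% of all tested genes, and 1 under 0.01, beside 0.321% of all tested genes that were lower at that p. Their summed level was 843 CPM in WT replicate 1, 1804 in WT replicate 2, 872 in HET replicate 1 and 797 in HET replicate 2. WT replicate 2 alone was high, and WT replicate 1 lay between the HET libraries. Without WT replicate 2 the median was 0.00, and without WT replicate 1 it was -1.09. The most abundant, *Rpl6*, stood at 38.9, 63.7, 36.5 and 44.0 CPM.

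Metallothioneins, small proteins that bind zinc and copper, moved with the same library. *Mt3* stood at 12.1, 28.9, 8.35 and 7.38 CPM (log2 fold change -1.30, unadjusted p = 0.00954, edgeR) and *Mt1* at 7.29, 22.2, 5.43 and 3.52 CPM (-1.58, unadjusted p = 0.0126, edgeR). Both HET libraries were below both WT libraries, and WT replicate 1 was close to the HET libraries. *Mt1* was in 15.2% of WT and 6.78% of HET nuclei and so was testable only through the WT nuclei. By the stricter membership rule, at least 5 UMIs and 3 genes among the 4 markers, the log2 fold change of *Mt1* was -0.05 (unadjusted p = 0.94, edgeR) and that of *Mt3* -1.01 (unadjusted p = 0.131, edgeR). Among nuclei with a *Scn7a* UMI they were -0.93 (unadjusted p = 0.0933, edgeR) and -0.97 (unadjusted p = 0.0762, edgeR). Without WT replicate 2, *Mt3* had a log2 fold change of -0.63 (adjusted p = 0.983, edgeR) and *Mt1* was in too few nuclei to be tested. Without WT replicate 1, which leaves WT replicate 2 as the only WT library, both passed (-1.78 and -2.17, adjusted p = 0.0359 and 0.0320, edgeR). The other excitatory nuclei held *Mt1* at 11.5, 40.5, 6.81 and 5.75 CPM. Of the 16 tested genes of metallothioneins and zinc transport, 5 were above 0 and 11 below, beside 50.6% of all tested genes below 0. Their median was -0.09, and it was -0.20 without WT replicate 2 and -0.21 among nuclei with a *Scn7a* UMI. *Slc39a10* (0.06), *Slc30a9* (0.04) and *Slc30a5* (0.21), the most abundant zinc transporters, and *Slc30a3* (-0.08), which loads zinc into synaptic vesicles, did not pass.

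Some markers of astrocytes were also highest in WT replicate 2, and those of oligodendrocytes were highest in WT replicate 2 and HET replicate 1. Of the 8 astrocyte markers none was at 0 over these neurons, and their sum was 505, 694, 627 and 548 CPM. *Slc1a2*, the most abundant, made up 532 CPM of it on average. *Apoe* stood at 16.4, 82.6, 14.6 and 12.7 CPM and *Aldoc* at 6.68, 19.3, 4.17 and 2.46 CPM, while *Aqp4*, *Gja1* and *Gfap* each stayed at 2.10 CPM or less. The 6 oligodendrocyte markers summed to 62.0, 186, 164 and 46.1 CPM, led by *Mbp* at 60.3 CPM on average, and none was at 0 over all the nuclei. Of the inhibitory markers, *Gad1* and *Gad2* were at 0 by the rule and *Erbb4*, the most abundant, stood at 169, 167, 163 and 74.2 CPM. The whole inhibitory list summed to 211, 251, 185 and 112 CPM, with both HET libraries below both WT libraries and the highest in WT replicate 2. *Adarb2* was at 41.0, 74.2, 20.2 and 33.1 CPM (log2 fold change -1.09, unadjusted p = 0.00557, edgeR) and at 248, 172, 112 and 154 CPM in the other excitatory nuclei. Microglial markers summed to 39.5, 59.97, 52.4 and 61.2 CPM, endothelial markers to 9.42, 3.35, 6.47 and 0.703 CPM and mural markers to 2.43, 7.55, 5.22 and 4.57 CPM. The part of this RNA in the ribosomal protein and metallothionein values was not tested.

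Of 16 circadian genes, 15 were above 0, with a median log2 fold change of 0.32, while 50.6% of all tested genes were below 0. *Hlf* was the single member at an unadjusted p under 0.05, beside 2.05% of all tested genes. Their summed level was 774, 830, 1003 and 763 CPM, with HET replicate 1 high, and without HET replicate 1 the median was -0.13. *Npas2* (0.09) and *Clock* (-0.02), the most abundant, did not pass. Of 11 genes of the integrated stress response 5 were above 0 and 6 below (median -0.01), and of 10 immediate early genes 5 were above and 5 below (median 0.02), none at an unadjusted p under 0.05. The immediate early median turned with the libraries, at 0.29 without WT replicate 1, -0.20 without WT replicate 2, -0.37 without HET replicate 1 and 0.41 without HET replicate 2. *Homer1*, the most abundant immediate early gene, stood at 392, 655, 930 and 384 CPM, with 1 library of each genotype high.

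The pathway genes of the markers did not pass in this comparison either. Of 9 sodium channel genes 4 were above 0 and 5 below (median 0.00), of 6 hedgehog reception genes 2 above and 4 below (median -0.02), and of 10 HGF and MET genes 8 above and 2 below (median 0.05). Of all tested genes, 50.6% were below 0. *Met* had a log2 fold change of 0.02 (SE 0.40). None of these 25 genes reached an unadjusted p under 0.05, beside 2.05% of all tested genes. *Tpm1* and *Tpm3* stood at 0.38 and 0.14.

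Whether a genotype effect is particular to these neurons was tested as the difference between their effect and that in the other excitatory nuclei of the same libraries. By edgeR's quasi-likelihood test, 2 of 9074 genes (0.022%) passed an adjusted p under 0.05, 101 (1.11%) an unadjusted p under 0.01 and 457 (5.04%) one under 0.05. *Mgat4c*, a glycosyltransferase gene, stood at 569 and 379 CPM in the WT libraries, and at 252 and 300 CPM in the HET ones here, and at 1260 and 890 CPM in the WT libraries, and at 908 and 955 CPM in the HET ones in the other excitatory nuclei. The difference of the effects was -0.58 on the log2 scale (SE 0.08, adjusted p = 0.00511). *Foxp2* in the other excitatory nuclei stood at 231 and 195 CPM in the WT libraries, and at 178 and 226 CPM in the HET ones. Its difference was -1.07 (SE 0.16, adjusted p = 0.00560, edgeR). In the *Rspo1* layer 4 type nuclei *Foxp2* was also lower in both HET libraries, at 42.2 and 45.2 against 27.7 and 10.2 CPM. In the upper layer type nuclei the genotypes overlapped, at 18.9 and 9.93 against 6.42 and 18.5 CPM. Genotype effects within these like types were not tested.

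Neither call held without the nuclei of high doublet score, where the differences were -0.35 for *Mgat4c* (adjusted p = 0.417, edgeR) and -0.58 for *Foxp2* (adjusted p = 0.740, edgeR). Without HET replicate 1 neither passed (-0.49 for *Mgat4c* and -1.02 for *Foxp2*, adjusted p = 0.255 for each, edgeR), and without WT replicate 1 *Foxp2* did not (-0.91, adjusted p = 0.155, edgeR). Without subcluster 6 the differences were -0.52 and -1.0 (adjusted p = 0.0592 and 0.244, edgeR), so in these fits the calls were lost while the differences stayed near their size. Both genes passed by DESeq2 (adjusted p = 0.000811 and 0.00337), by edgeR's likelihood-ratio test, under a stricter rule of at least 5 UMIs from 3 markers, and without WT replicate 2 or HET replicate 2. A *Foxp2* UMI was found in 16.8% of these neurons and in 10.5% of oligodendrocyte nuclei, which are far shallower. *Foxp2* stood at 139, 115, 41.7 and 59.02 CPM in the oligodendrocyte nuclei of the 4 libraries, lower in both HET libraries. Outside subclusters 4 and 6 its low level here cannot be told apart from free RNA, and the part of free RNA in its difference was not tested. Of the 354 *Foxp2* UMIs in these neurons, 134 were in subcluster 4 and 67 in subcluster 6. In subcluster 4 the genotypes overlapped, at 167 and 51.7 CPM in the WT libraries against 22.3 and 75.7 CPM in the HET ones. In subcluster 6 it stood at 40.6 and 113 CPM in the WT libraries against 36.1 and 9.78 CPM in the HET ones. The next genes by p were *Il1rapl2* (0.46), *Slc24a2* (0.39), *Cntnap5c* (0.53), *Camk2n2* (1.35) and *Cdh9* (0.63) in the higher direction and *Rnf152* (-1.51), *Nfia* (-0.59) and *Trabd2b* (-1.18) in the lower, and none of these passed. *Il1rapl2* passed by the likelihood-ratio test (0.46, adjusted p = 0.0105, edgeR), with no detection filter (0.44, adjusted p = 0.000266, edgeR), without nuclei of high doublet score (0.52, adjusted p = 0.0221, edgeR), without WT replicate 1 (0.63, adjusted p = 0.0016, edgeR) and without HET replicate 2 (0.52, adjusted p = 0.0406, edgeR), but not without the other libraries, without subcluster 6 or by DESeq2, and it was 0.18 under the stricter marker rule (adjusted p = 0.99, edgeR). *Cdh9* passed without HET replicate 2 (0.92, adjusted p = 0.00587, edgeR) and with no detection filter (0.62, adjusted p = 0.00113, edgeR). It was 0.20 without subcluster 6 (adjusted p = 0.974, edgeR) and -0.41 under the stricter marker rule (adjusted p = 0.99, edgeR). *Cdh9* and *Cntnap5c* are leading genes of subcluster 6, *Cdh9* at 405 CPM there against 27.3 CPM in the others.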

How the data were processed

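Nuclei of 1 mouse per library were sequenced on the 10x Genomics droplet platform, and the authors made the deposited UMI count matrices with Cell Ranger 5.0.0 against mm10. The counts are raw, and the matrices hold 53990 called barcodes (16415 and 16301 in WT, 9905 and 11369 in HET) with 112226479, 89727416, 89436507 and 89799327 UMIs. Nuclei with 500 to 50000 UMIs, over 200 genes and under 5% mitochondrial UMIs were kept, which left 52132. No barcode was removed as a doublet in the main results, and the comparisons were repeated without the nuclei of highest Scrublet score (0.8% of a library for each 1000 of its nuclei). The members and the gene lists were chosen with earlier results of these data known.

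Counts were summed per library and set of nuclei, since nuclei are not replicates. Tests covered genes with 10 or more counts that were detected in 10% or more of the nuclei of either group, by edgeR 4.0.16 in R 4.3.3 (quasi-likelihood, TMM scaling) with Benjamini-Hochberg adjustment. The 13 rule genes were left out of tests. Comparisons between sets of nuclei included the library as a term, and the genotype effects were compared by an interaction term. DESeq2 1.42.0, the likelihood-ratio test, other scalings, detection filters, membership rules and leaving out each library were tried as alternatives, of which those restricted to *Scn7a* nuclei or leaving out a subcluster were chosen after seeing the data. On simulated data, 200 genes changed by 1.5 on the log2 scale were recovered at 88.5% in the genotype comparison over 9021 genes, at 100% against other excitatory nuclei over 8721 genes and at 97.5% in the interaction over 9074 genes. Unchanged genes gave 8, 4 and 11 false calls. The simulated counts followed the fitted trend of spread, and only genes averaging at least 10 counts were changed. In the genotype comparison no simulated library stood apart. These shares are therefore not the power for the real libraries or for smaller changes. Subclusters were found by Leiden clustering (leidenalg 0.10.2, with scanpy 1.11.5 and Python 3.11.15) at resolution 0.5 on 1000 variable genes without the rule genes. The text names, by smallest p, 10 genes in each direction for genotype (libraries not overlapping), 15 higher and 10 lower against other excitatory nuclei, 8 in each direction against the other types, 5 in each direction in the interaction, and the most abundant members of each list. Others, such as those given for free RNA, astrocyte RNA, *Met*, *Scube1*, *Mt1*, *Mt3* or subclusters, were chosen after their values were seen. The smallest p of an exact permutation test of these groups is 0.33. Shares also depend on the depth of the nuclei. In the genotype and share comparisons, p-values rest on the spread between these 4 mice. Where the library is a term, they rest on how differences within a library vary across the 4 mice. Some genes are not reported here.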

Additional observations from a re-analysis of the deposited data

Results flagged for a closer look

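The genotype effect differed between the Scn7a and Boc neurons and the other excitatory nuclei in 2 genes, by a test of the difference itself with edgeR. The difference was -0.58 on the log2 scale for *Mgat4c* (adjusted p = 0.00511) and -1.07 for *Foxp2* (adjusted p = 0.00560). Without the nuclei of high doublet score the differences were -0.35 and -0.58 and neither passed. Neither passed without HET replicate 1 (-0.49 and -1.02) or without subcluster 6 (-0.52 and -1.0), where the differences stayed near their size. Both passed by DESeq2, by the likelihood-ratio test and under a rule of at least 5 UMIs from 3 markers (-0.81 and -2.52). Without WT replicate 1 the difference for *Foxp2* was -0.91. *Foxp2* was also lower in both HET libraries of the *Rspo1* layer 4 type nuclei (42.2 and 45.2 against 27.7 and 10.2 CPM). In the upper layer type nuclei the genotypes overlapped. Outside subclusters 4 and 6 the low level of *Foxp2* in the Scn7a and Boc neurons cannot be told apart from free RNA. The part of free RNA in its difference was not tested.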

How the results depend on the processing

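Of the values tried for single genes, those against the other excitatory (300), upper layer type (192) and layer 4 type nuclei (192) kept their direction and side of the threshold under the alternatives run. The counts moved more. Genes at an adjusted p under 0.05 between genotypes numbered 0 by edgeR's quasi-likelihood test, 2 by its likelihood-ratio test and 1 by DESeq2, and ran from 0 to 26 when 1 library was left out, the 26 being without WT replicate 1. At an unadjusted p under 0.01 the 30 genes became 61 by the likelihood-ratio test, 63 with no detection filter, 58 with at least 5 UMIs and 3 marker genes, 14 without high doublet scores, 19 without subcluster 6, and 37 to 186 without 1 library. The 2-fold calls against other excitatory nuclei (167) became 743 with no detection filter, 400 under the stricter marker rule and 315 among *Scn7a* nuclei alone. Against upper layer type nuclei (418) they became 823 and 637 under the first and second of these settings, and against layer 4 type nuclei (190) they became 293, 425 and 427. The 2 calls in the difference of genotype effects became 14 by the likelihood-ratio test, 35 with no detection filter, 7 under the stricter rule, 1 without high doublet scores and 1 to 12 without 1 library. The stricter rule turned *Ndst4* to 0.56 and the interaction of *Cdh9* to -0.41. The share among excitatory nuclei ran from -0.277 to 2.36 points without 1 library, and -0.277 is the value without HET replicate 1. The largest difference in subcluster shares, 3.74 points, became 5.99 at resolution 0.3, 5.98 at 0.8, 5.72 without centring per library and 4.13 to 5.80 without 1 library. List medians moved by more than the spread of their genes in 6 cases, those given for the ribosomal and circadian lists and 3 of the hedgehog list (-0.02 to at most 0.13), and the cause was not tested. Library numbers are shared across genotypes, and the sample labels state no pairing of the mice. Deviations of same-numbered libraries had r = -0.0947. With 2 libraries per group the crossed value must be its opposite (0.0947), so this correlation cannot decide whether mice were paired. With a replicate block, 33 genes passed an unadjusted p under 0.01 and 0 the adjusted threshold. Depth limits what can be seen of *Met*, *Scn7a* and *Tnnc1*, which few nuclei hold.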
